A study of Mus musculus with 29 samples.

Results

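The 33 genes described here encode the enzymes of glycolysis, the lactate dehydrogenases, the monocarboxylate (lactate) transporters Slc16a1 and Slc16a3, and the enzymes of the pentose phosphate pathway. They were listed by name, found through the Entrez identifiers of the count tables, and make up 33 of 18834 genes in the tables. All 33 passed the filter on low counts and are among the 13928 genes tested. RNA was measured in 29 libraries of sorted mouse megakaryocyte-erythrocyte progenitors (MEPs), bone marrow progenitors of platelets and red cells. Every library carried a Cre transgene, the controls included, which the labels write as ScleCre in the groups without V617F and as SclCre in the groups with it. Scl is a transcription factor gene of blood stem and progenitor cells. The labels do not say whether both names mean 1 transgene, so the V617F allele and any difference in transgene cannot be told apart. The groups without V617F were Ezh2 +/+ (called control below, 5 libraries, 2 male and 3 female), Ezh2 +/- (4 libraries, 2 male and 2 female) and Ezh2 -/- (4 libraries, 1 male and 3 female). The groups with the JAK2 V617F allele, an activating kinase mutation of human myeloproliferative neoplasms, were Ezh2 +/+ (called V617F below, 4 libraries, 1 male and 3 female), V617F Ezh2 +/- (6 female libraries) and V617F Ezh2 -/- (6 female libraries). Ezh2 is the methyltransferase subunit of Polycomb repressive complex 2. The age of the mice, the sorting gates, the time of Cre activity and the part of Ezh2 that is removed were not stated in the labels, and nothing says that replicates of a group came from separate mice, so p-values measure the spread between these libraries.

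Glycolysis splits glucose into pyruvate with a net gain of ATP, and lactate dehydrogenase and the lactate transporters dispose of pyruvate when it does not enter mitochondria. Hexokinase, phosphofructokinase and pyruvate kinase are its irreversible steps, and each has several isozymes encoded by separate genes that differ between tissues. The pentose phosphate pathway branches off after hexokinase: its oxidative arm yields NADPH and its non-oxidative arm makes ribose for nucleotides. Red cells lose their mitochondria and live on glycolysis, with an erythroid form of pyruvate kinase from Pklr and with bisphosphoglycerate mutase (Bpgm), whose product lowers the oxygen affinity of haemoglobin.

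The libraries held 31.6 to 59.4 M counts each, and the 33 genes together held 0.64 to 0.74% of them. A count of 3, taken as the floor, is worth 0.0496 to 0.0946 CPM (the count divided by the scaled library total in M) in a single library, covering counting error only. Ezh2 followed the labels: it was at 303 ± 20 CPM in control libraries (SD, n = 5), 192 ± 4.28 in Ezh2 +/- (n = 4), 73.4 ± 5.89 in Ezh2 -/- (n = 4), 289 ± 31.2 in V617F (n = 4), 174 ± 23.2 in V617F Ezh2 +/- (n = 6) and 55 ± 3.1 in V617F Ezh2 -/- (n = 6). Counts per gene cannot show the V617F base change, and Jak2 was at 177 to 237 CPM in the group means. The MEP label was checked with marker lists. The summed level of 20 erythroid genes was 6720 to 12900 CPM in every library, and that of megakaryocyte and platelet genes was 240 to 2210 CPM. Granulocyte genes summed to 23.5 to 346 CPM per library without V617F and to 142 to 1850 CPM with it. Control replicate 5 and Ezh2 +/- replicates 2 and 5 stood apart from their groups in an earlier analysis of these data, and control replicate 5 had the highest granulocyte sum (345 CPM) and megakaryocyte sum (825 CPM) of its group. In these bulk libraries, fewer cells of a type and less RNA per cell cannot be told apart.

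In control MEPs, the 33 genes spanned a wide range of levels per length (CPM per kb of the gene length in the deposited tables). Lactate dehydrogenase A (Ldha) was highest at 472 ± 34.2 CPM per kb (SD, n = 5). It was followed by transketolase (Tkt) at 359 ± 22.6 and transaldolase (Taldo1) at 299 ± 23.3, the 2 enzymes of the non-oxidative pentose phosphate arm that exchange carbon units with glycolysis. Gapdh was at 255 ± 14.7 CPM per kb, aldolase A (Aldoa) at 239 ± 27.4 and triosephosphate isomerase (Tpi1) at 200 ± 18. Neighbours from Gapdh to Aldoa, and among Pklr (157 ± 21.6), hexokinase 1 (Hk1, 154 ± 12.9) and glucose phosphate isomerase (Gpi1, 143 ± 6.72), did not differ beyond their spread. At the low end stood lactate dehydrogenase B (Ldhb, 1.09 ± 0.837 CPM per kb), Slc16a3 (1.07 ± 0.137), hexokinase 3 (Hk3, 0.982 ± 1.24), aldolase C (Aldoc, 0.482 ± 0.126) and neuronal enolase (Eno2, 0.0911 ± 0.0584). Each of these 5 belongs to a step at which another member was far more abundant: Ldha, Slc16a1 (67.6 ± 7.86), Hk1, Aldoa and Eno1 (91.1 ± 5.74). The large SDs of Ldhb and Hk3 came with control replicate 5, which had 3.31 CPM of Ldhb against 0.612 to 1.16 in the other 4 libraries and 10.4 CPM of Hk3 against 1.05 to 1.81.

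**Figure D1:**
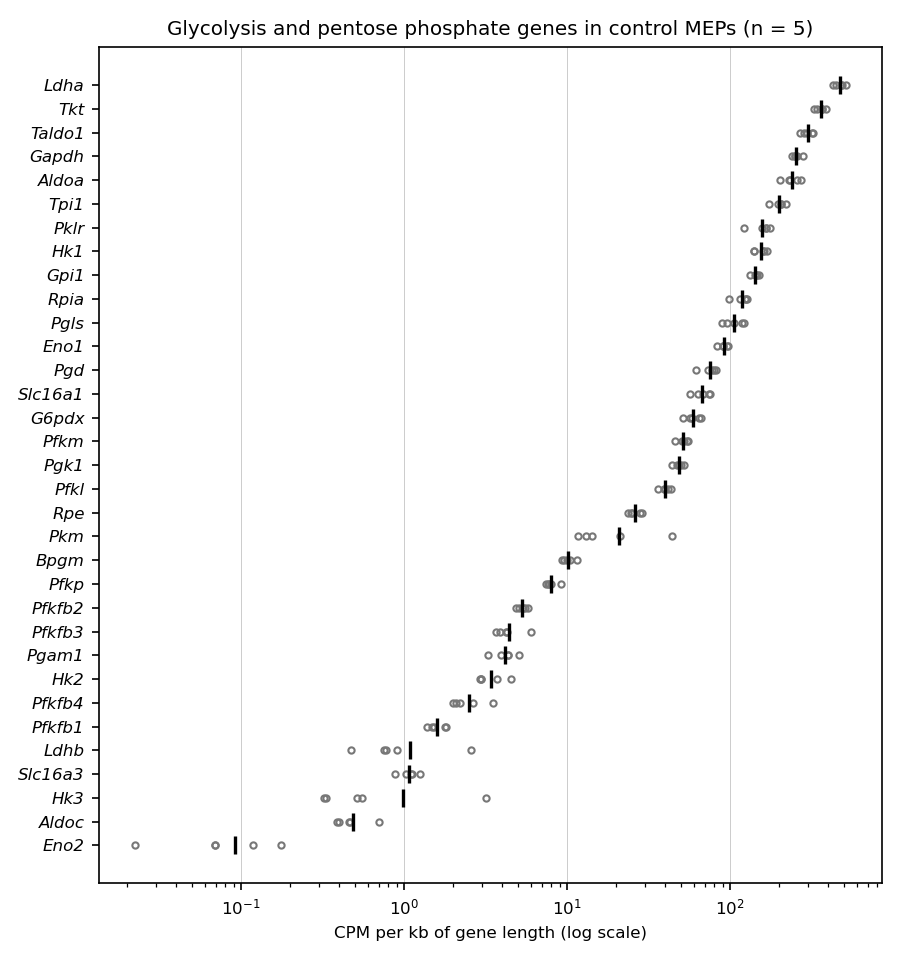
Level of each of the 33 genes in the 5 control libraries, as CPM per kb of gene length on a log scale (open circles: libraries, bars: mean). Ldha, Tkt and Taldo1 head the order and Aldoc and Eno2 close it; Pkm, Ldhb and Hk3 each have 1 library far to the right, control replicate 5.

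Read mapping could mix some of these genes with pseudogene copies or with other genes that share sequence with them. Among the 50-base stretches of their transcripts, 68% of those of Pgk1, 58.4% of those of Gapdh (with 213 pseudogenes sharing some), 49.5% of Eno1 and 41.5% of Pgam1 also occur in another gene of the GENCODE M21 transcript set, and the shares for Pfkfb2, Gpi1, Pkm, Pklr and Ldhb lie between 21 and 25%. The sources used here do not give the treatment of reads with several matches, so the values of these 9 genes are uncertain. No stretch of Slc16a3, Pfkfb4, Hk3, Aldoc, Pgd, Rpia or Tkt is shared.

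The median within-group SD of the 33 genes was 0.151 on the log2 scale against 0.171 over all tested genes, and the median range of the 6 group means was 0.379 against 0.423. The changes that passed the test (edgeR quasi-likelihood, Benjamini-Hochberg adjusted p under 0.05 over all 13928 genes) included minor isozymes, regulators of phosphofructokinase, Slc16a3 and pentose phosphate genes. Ezh2 -/- against control gave 4 higher and 2 lower members (18.2%), where 23.7% of all tested genes were called (11.5% higher, 12.2% lower). The median log2 fold change of the members was 0.05 and that of all genes -0.011. With V617F present, Ezh2 -/- against Ezh2 +/+ gave 2 higher and 7 lower (27.3%), against 26.6% of all genes (13% higher, 13.6% lower), with medians of -0.09 and -0.003. V617F against none in Ezh2 +/+ gave 4 higher and 1 lower (15.2%), against 23.6% of all genes (9.73% higher, 13.9% lower), with medians of 0.08 and 0.009. V617F against none in Ezh2 +/- gave 1 higher and 2 lower (9.09%), against 9.87% of all genes (3.35% higher, 6.51% lower), with medians of 0.04 and 0.002. V617F against none in Ezh2 -/- gave 11 higher and 8 lower (57.6%), against 41.6% of all genes (19.1% higher, 22.5% lower), with medians of -0.12 and -0.029. The shares in the first 4 of these comparisons were near or below those of all genes, and that of V617F in Ezh2 -/- was above it. That comparison is also the one whose calls depended most on cell type terms: with granulocyte, T and NK and stem cell marker levels as covariates it gave 0 member calls, and with erythroid and megakaryocyte levels 3 (Pfkfb4, and Hk2 and Bpgm, which were not called in the main fit). Hk2 was lower with these covariates (-0.54, adjusted p 0.0328) but higher with the compared groups alone (0.33, adjusted p 0.0365). Without Ezh2 -/- replicate 3 the comparison gave 9. Calls over all 13928 genes fell too, from 5795 to 421 with the granulocyte, T and NK and stem cell covariates. They fell to 815 with the erythroid and megakaryocyte covariates and to 3197 without that replicate. For V617F in Ezh2 -/-, the erythroid, megakaryocyte, granulocyte and stem cell sums did not overlap between the groups compared. V617F and these marker levels therefore cannot be told apart there by covariates, and a lost or reversed call decides nothing between them. Comparisons that share a group share its libraries and are not independent.

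Loss of 1 Ezh2 copy changed no member by this test. Ezh2 +/- against control gave 0 calls with edgeR (0.0144% of all genes called), 1 member at an unadjusted p under 0.05 and 0 calls with DESeq2. V617F Ezh2 +/- against V617F also gave 0 calls (0.00718% of all genes), 1 member at an unadjusted p under 0.05 and 0 with DESeq2. Member log2 fold changes ran from -0.16 to 0.48 in the first and from -0.39 to 0.15 in the second.

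**Figure D2:**
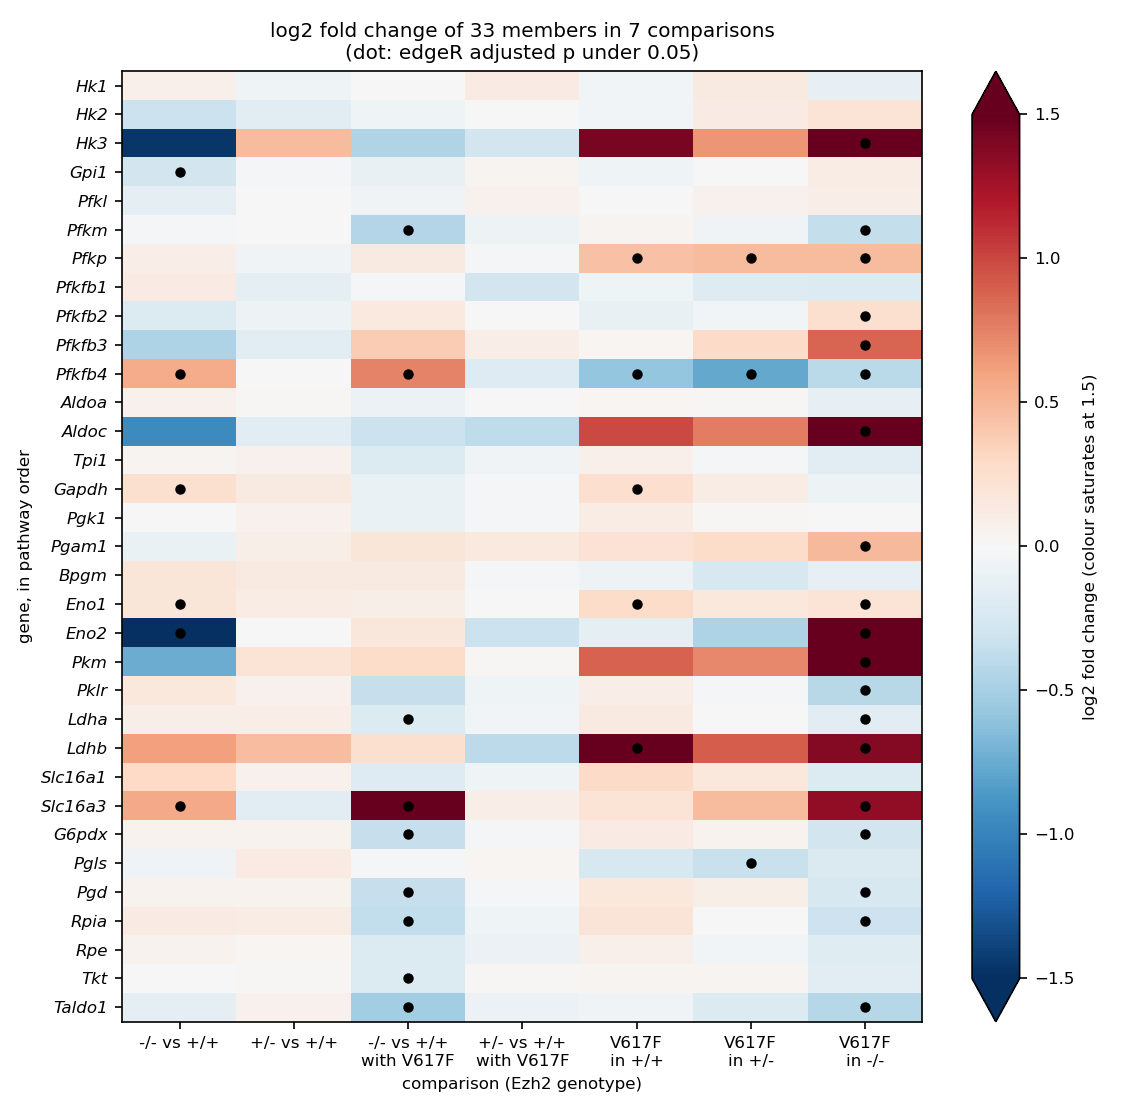
Log2 fold change of the 33 genes (rows, in pathway order) in 7 pairwise comparisons (columns); red is higher and blue lower, colour saturates at 1.5, and a dot marks an adjusted p under 0.05. The columns for loss of 1 Ezh2 copy hold no dot, the column for V617F in Ezh2 -/- holds 19, and Slc16a3 and Pfkfb4 are marked in both columns for loss of both copies.

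The entry steps of glycolysis changed little. Hk1, the main hexokinase here, passed the test in none of the 7 comparisons, with fold changes between -0.12 and 0.14 on the log2 scale, and neither did Hk2. Gpi1, which turns glucose phosphate into fructose phosphate, fell in Ezh2 -/- from 409 ± 19.2 CPM (SD, n = 5) to 338 ± 13.7 (n = 4), a log2 fold change of -0.28 ± 0.06 (SE, adjusted p 0.000709), with no overlap between the groups. It was at 393 ± 15.1 CPM in V617F and 366 ± 14.8 in V617F Ezh2 -/-.

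Hk3 (Entrez 212032), a hexokinase best known from myeloid cells, was low and uneven. The Ezh2 -/- libraries had 1.55, 1.57, 0.494 and 1.07 CPM, while V617F Ezh2 -/- ran from 1.51 through a median of 9.26 to 13.4 CPM. Only the lowest V617F Ezh2 -/- library, replicate 6, fell within the range of the Ezh2 -/- libraries. The log2 fold change was 2.43 ± 0.8 (SE, adjusted p 0.0193). The call was lost without Ezh2 -/- replicate 1 (adjusted p 0.054) or replicate 3 (adjusted p 0.084). Granulocyte markers moved with it: their sum was 23.5 to 95.3 CPM in Ezh2 -/- and 142 to 1410 CPM in V617F Ezh2 -/-, and all 19 tested members of that list were higher. With granulocyte, T and NK and stem cell marker levels as covariates Hk3 was at -1.92 (adjusted p 0.216), and with erythroid and megakaryocyte levels at 0.76 (adjusted p 0.771). The same 3 libraries that stood apart carried most of the Hk3 of the groups without V617F, at 10.4 CPM in control replicate 5 and 10.7 and 7.82 CPM in Ezh2 +/- replicates 2 and 5, against 0.797 and 0.841 CPM in the other 2 Ezh2 +/- libraries. Without these 3 libraries Hk3 passed the test for V617F in Ezh2 +/+ as well (log2 fold change 2.56, adjusted p 0.0122), where all libraries gave 1.42 ± 0.72 (SE, adjusted p 0.149).

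Phosphofructokinase, the committed step, is built from liver (Pfkl), muscle (Pfkm) and platelet (Pfkp) subunits. The platelet subunit rose with V617F in each Ezh2 background, by 0.44 ± 0.1, 0.47 ± 0.1 and 0.47 ± 0.1 on the log2 scale in Ezh2 +/+, +/- and -/- (SE, adjusted p 0.00219, 0.0033 and 0.00097), and the groups did not overlap in any of the 3. In Ezh2 +/- the call was lost without the 3 libraries apart (0.46, adjusted p 0.246) and with the compared groups alone (0.49, adjusted p 0.0934). Without those libraries, 2 Ezh2 +/- libraries remained, both male, against 6 female libraries with V617F. With granulocyte, T and NK and stem cell levels as covariates the values were 0.28, 0.34 and 0.12 (adjusted p 0.338, 0.359 and 0.705). Megakaryocyte and platelet genes moved with V617F as well, with 10, 8 and 19 of 19 tested genes higher in the 3 backgrounds and 0 lower. With erythroid and megakaryocyte levels as covariates Pfkp was at -0.01 in Ezh2 -/- (adjusted p 0.985), while its calls in Ezh2 +/+ and +/- were kept. Control libraries had 29.7 to 36.7 CPM and V617F libraries 37.9 to 52.6. Pfkm fell in V617F Ezh2 -/- to 117 ± 14 CPM (SD, n = 6) from 161 ± 23.1 in V617F (n = 4; log2 fold change -0.44 ± 0.12, adjusted p 0.00998) and from 152 ± 13.7 in Ezh2 -/- (n = 4; -0.36 ± 0.12, adjusted p 0.0194). The first call was lost in female libraries alone (-0.37, adjusted p 0.06). The second was lost with both sets of marker covariates (0.21 in each) and without Ezh2 -/- replicate 1 or 3 or V617F Ezh2 -/- replicate 2 or 4. Pfkl, at 132 to 151 CPM in the group means, passed in none. As a description, Pfkp stood to Pfkl per length at 0.201 ± 0.0158 in control and 0.317 ± 0.0181 in V617F Ezh2 -/-.

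The 4 bifunctional Pfkfb enzymes make and break the sugar bisphosphate that switches phosphofructokinase on. Pfkfb4 (Entrez 270198) moved both ways, higher with loss of both Ezh2 copies and lower with V617F. Control libraries had 7.41, 7.01, 8.91, 6.7 and 11.8 CPM and Ezh2 -/- libraries 16, 12.4, 12.7 and 10.4. Replicate 5 of the controls lay inside the Ezh2 -/- range and the other 4 below it. V617F libraries had 6.32, 5.54, 5.7 and 5.38 CPM, all below every control library, and V617F Ezh2 -/- ran from 8.42 through 10.4 to 11.8 CPM, above all of them. The log2 fold change with Ezh2 loss was 0.56 ± 0.16 (SE, adjusted p 0.0133) without V617F and 0.74 ± 0.17 (adjusted p 0.00226) with it. With V617F it was -0.58 ± 0.17 (adjusted p 0.0125) in Ezh2 +/+, -0.77 ± 0.17 (adjusted p 0.00318) in Ezh2 +/- and -0.41 ± 0.16 (adjusted p 0.0385) in Ezh2 -/-. The call for Ezh2 loss with V617F held in all 10 leave-one-out fits and in all 10 alternatives. That without V617F was lost without Ezh2 -/- replicate 1 (adjusted p 0.0545) and in female libraries alone (0.57, adjusted p 0.0799). The V617F calls rested on fewer fits: in Ezh2 +/+ the call was lost without control replicate 5 or V617F replicate 2 or 4 (adjusted p 0.0648, 0.0553 and 0.0584), in Ezh2 +/- without Ezh2 +/- replicate 5 (0.0615), and in Ezh2 -/- under 7 of 10 leave-one-out fits. Without the 3 libraries apart, the values were -0.40 in Ezh2 +/+ (adjusted p 0.0791) and -0.35 in Ezh2 +/- (adjusted p 0.536). The latter rests on 2 remaining Ezh2 +/- libraries, both male.

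Pfkfb3 (Entrez 170768), known as the inducible form with high kinase activity, rose with V617F in Ezh2 -/-. The Ezh2 -/- libraries had 17.5, 17.8, 15.7 and 18.1 CPM, and the V617F Ezh2 -/- libraries ran from 28.7 through 33.4 to 39 CPM, so the groups were fully separate. The log2 fold change was 0.87 ± 0.18 (SE, adjusted p 0.00105) and held in all 10 leave-one-out fits. The megakaryocyte and platelet sum also went from 240 to 327 CPM up to 1350 to 2010 CPM. With erythroid and megakaryocyte levels as covariates Pfkfb3 was at -0.03 (adjusted p 0.946), and with granulocyte, T and NK and stem cell levels at 0.09 (adjusted p 0.775). Control libraries had 22.4, 19.2, 22.6, 20.4 and 31.8 CPM and V617F libraries 32.6, 23.8, 20.4 and 21.4, which overlap (0.03 ± 0.18, adjusted p 0.928). Pfkfb2 rose in the same comparison by 0.24 ± 0.09 (adjusted p 0.0327), a call lost in 4 of 10 leave-one-out fits and at -0.15 (adjusted p 0.692) with granulocyte, T and NK and stem cell covariates. Pfkfb1 passed in none.

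In the middle of the pathway, Aldoa, Tpi1 and phosphoglycerate kinase (Pgk1) passed in none of the 7 comparisons, nor did Bpgm, which was at 20.9 ± 1.8 CPM in control (SD, n = 5) and 23 ± 1.02 in V617F Ezh2 -/- (n = 6). Gapdh rose by 0.24 ± 0.07 with Ezh2 loss without V617F (adjusted p 0.00969) and by 0.25 ± 0.06 with V617F in Ezh2 +/+ (adjusted p 0.00598), from 315 ± 18.1 CPM in control to 370 ± 22.8 and 375 ± 4.58. Eno1, the main enolase, rose in the same comparisons (0.18 ± 0.05 and 0.28 ± 0.05, adjusted p 0.0157 and 0.000539) and with V617F in Ezh2 -/- (0.20 ± 0.05, adjusted p 0.00613). With Ezh2 loss the Eno1 call was lost in female libraries alone (0.17, adjusted p 0.0898). With granulocyte, T and NK and stem cell covariates, Eno1 was at 0.11 and 0.36 (adjusted p 0.108 and 0.0566) and Gapdh at 0.14 and 0.29 (adjusted p 0.107 and 0.2) in the first 2 comparisons. With erythroid and megakaryocyte covariates these calls were kept. For V617F in Ezh2 -/- the Eno1 call was lost with either set (0.34 and 0.28, adjusted p 0.0767 and 0.0535). Pgam1, phosphoglycerate mutase, rose from 7.23 ± 0.393 CPM in Ezh2 -/- to 10.3 ± 1.54 in V617F Ezh2 -/- (0.49 ± 0.14, adjusted p 0.00717), and was at -0.22 and -0.01 with the 2 sets of marker covariates (adjusted p 0.66 and 0.989). Gapdh, Eno1 and Pgam1 are among the genes that share much of their sequence with other genes.

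The minor isozymes Aldoc and Eno2 were low. Aldoc had 10 to 197 reads per library, and Eno2 was near the limit of detection. Aldoc (Entrez 11676) had 0.712, 0.536, 0.458 and 0.301 CPM in the Ezh2 -/- libraries and ran from 1.08 through 1.51 to 2.99 CPM in V617F Ezh2 -/-, with no overlap (log2 fold change 1.62 ± 0.48, adjusted p 0.0114). The V617F libraries spread from 0.392 to 5.1 CPM. The Aldoc call was lost without Ezh2 -/- replicate 3 (1.52, adjusted p 0.0505) and with either set of marker covariates (-0.38 and 0.06, adjusted p 0.789 and 0.97). Eno2 (Entrez 13807), the neuronal enolase, had 0.0407, 0.0618, 0.0549 and 0.043 CPM in Ezh2 -/-, which is at or under the floor. Control libraries had 0.183, 0.181, 0.312, 0.0585 and 0.463 CPM, and replicate 4 fell within the Ezh2 -/- range. All V617F Ezh2 -/- libraries, at 0.148 to 0.505 CPM, were above those of Ezh2 -/-. In counts this is 10 reads in the 4 Ezh2 -/- libraries together against 62 in the controls, a ratio of 0.188 after scaling (95% interval 0.0858 to 0.369), and against 85 in V617F Ezh2 -/- (6.39, 3.31 to 13.8). These intervals cover counting error only. The edgeR adjusted p was 0.0104 against control (0.0716 without the 3 libraries apart) and 0.00615 for V617F in Ezh2 -/-, and neither call held with marker covariates.

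Pyruvate kinase, the last step, was made mostly from Pklr. Pkm (Entrez 18746), whose products are the forms of most other tissues, was the minor gene per length in every library and rose with V617F in Ezh2 -/- while Pklr fell. The Ezh2 -/- libraries had 27.1, 35.6, 26 and 36.9 CPM of Pkm, and the V617F Ezh2 -/- libraries ran from 91.7 through 144 to 198 CPM. The groups did not overlap, and the log2 fold change was 1.92 ± 0.45 (SE, adjusted p 0.00259, held in all 10 leave-one-out fits). Pklr fell in the same comparison from 480 ± 28.5 CPM (SD, n = 4) to 347 ± 59.5 (n = 6; -0.42 ± 0.16, adjusted p 0.0375), a call lost in 7 of 10 leave-one-out fits. In the groups between, Pkm varied several-fold inside a group. Control libraries had 33.8, 30.4, 54.5, 37.1 and 115 CPM, V617F libraries 213, 106, 47.9 and 77.3, and V617F Ezh2 +/- ran from 41.5 through 121 to 217. The Ezh2 -/- libraries had the narrowest range. V617F in Ezh2 +/+ gave 0.89 ± 0.42 (adjusted p 0.119) with all libraries and 1.29 (adjusted p 0.0401) without control replicate 5. Described per length, with no test, Pklr stood to Pkm at 9.94 ± 4.89 in control, 14.6 ± 3.32 in Ezh2 -/-, 5.54 ± 3.89 in V617F and 2.4 ± 1.08 in V617F Ezh2 -/-, where the highest library (4.31) was below the lowest Ezh2 -/- library (11.6).

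Lineage markers moved with pyruvate kinase. In 5 of 6 groups the library with the highest Pkm also had the highest megakaryocyte and platelet sum. Of all tested genes, 8.31% matched in at least 5 groups. In 6 of 6 groups the library with the lowest Pklr had the lowest erythroid sum, where 13.6% of all tested genes matched in at least 5. These matches were not particular to the 2 lists. The Pkm match was also 5 of 6 for the T and NK and for the B cell sum, and the Pklr match 6 of 6 for the cell cycle sum. The cell cycle and erythroid sums were lowest in the same library of every group, so these Pklr matches are the same result. The highest Pklr and the highest erythroid sum shared a library in 2 of 6 groups. Between Ezh2 -/- and V617F Ezh2 -/-, megakaryocyte and platelet genes went from 240 to 327 CPM up to 1350 to 2010 CPM in sum (19 of 19 tested members higher) and erythroid genes from 10500 to 11700 down to 6720 to 8650 CPM (11 of 20 lower, 0 higher). When the mean levels of these 2 lists were added to the fit as covariates, Pkm was at -0.47 (adjusted p 0.415) and Pklr at 0.41 (adjusted p 0.0655) for V617F in Ezh2 -/-. Neither sum overlapped between the groups compared, so this fit cannot tell V617F and the marker levels apart.

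The promoter windows of this gene pair are shown because the isozymes moved in opposite directions with V617F in Ezh2 -/-. Each runs from 250 bases before to 50 bases after a transcript start in RefSeq on GRCm38.p6, 5′ to 3′ on the gene's strand. Capitals mark matches, on either strand, to AGATAA, the motif of Gata1 and its relatives, to CCNCACCC, the motif of Klf1 and its relatives, or to ACGTG, the core shared by hypoxia response elements and some E-boxes. Pklr has 2 windows and the upstream one is given, at chr3:89135892-89136191 (plus strand, 3 CpG, 1 AGATAA). For Pkm the second of 2 windows is given, at chr9:59656977-59657276 (plus strand, 23 CpG, 2 overlapping CCNCACCC and 2 ACGTG). The window shown of each gene is the one with motif matches, and the other window of each holds none of the 3 motifs.
Pklr: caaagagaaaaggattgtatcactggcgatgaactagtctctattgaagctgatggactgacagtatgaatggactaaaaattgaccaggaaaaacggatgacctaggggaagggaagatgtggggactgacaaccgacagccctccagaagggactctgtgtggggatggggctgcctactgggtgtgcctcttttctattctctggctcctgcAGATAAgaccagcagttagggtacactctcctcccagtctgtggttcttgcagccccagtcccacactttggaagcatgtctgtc
Pkm: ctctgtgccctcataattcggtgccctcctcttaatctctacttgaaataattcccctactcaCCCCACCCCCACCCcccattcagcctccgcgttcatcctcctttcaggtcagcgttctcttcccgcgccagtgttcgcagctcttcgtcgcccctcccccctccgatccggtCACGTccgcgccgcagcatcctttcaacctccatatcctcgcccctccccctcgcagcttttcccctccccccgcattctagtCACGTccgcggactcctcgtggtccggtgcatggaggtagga
Of 32851 windows in the RefSeq table, 11.2% hold AGATAA, 16.6% CCNCACCC and 19.6% ACGTG. Among the 52 windows of the 33 genes the shares were 13.5, 19.2 and 38.5% (20 windows with ACGTG), and their median number of CpG was 17.5 against 7 over all windows. A match describes letters only, and windows of 1 gene can overlap.

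**Figure D3:**
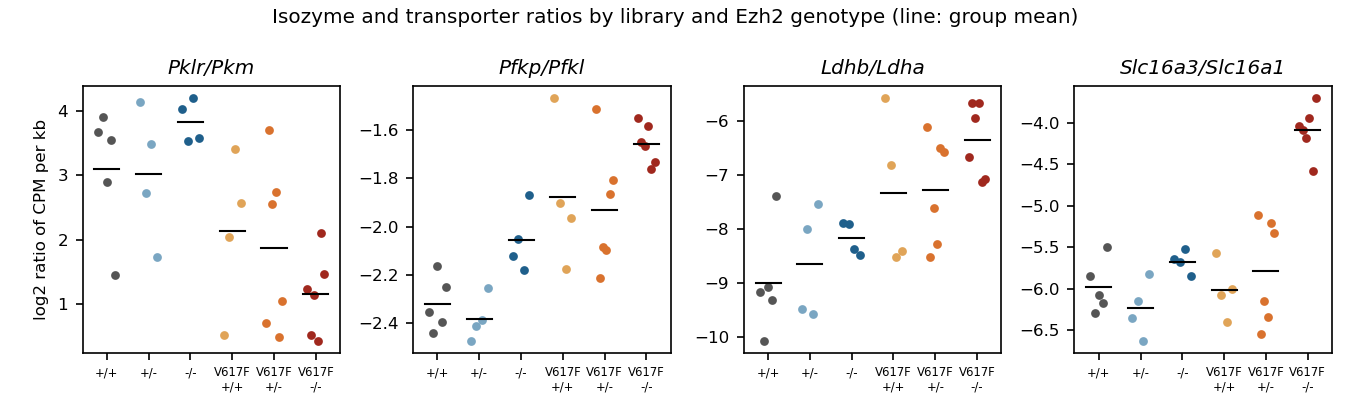
Log2 ratio of CPM per kb for 4 pairs of genes by library (points) and group mean (lines), without and with V617F by Ezh2 genotype. Pklr/Pkm is lowest in V617F Ezh2 -/-, Pfkp/Pfkl and Ldhb/Ldha are highest there in group mean, and the 6 V617F Ezh2 -/- libraries stand above all 23 others for Slc16a3/Slc16a1.

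Among the lactate genes, Slc16a3 (Entrez 80879) had the lowest adjusted p of any of the 33 genes. It encodes the lactate exporter known from glycolytic muscle and hypoxic cells. Control libraries had 2.83, 2.25, 2.88, 2.63 and 3.21 CPM and Ezh2 -/- libraries 4.01, 3.79, 5.13 and 3.82, so every Ezh2 -/- library was above every control. V617F libraries had 3.6, 3.22, 2.76 and 3.47 CPM, and V617F Ezh2 -/- ran from 7.89 through 10.8 to 15.4 CPM. The lowest of these exceeded the highest of the other 23 libraries. The log2 fold change with Ezh2 loss was 0.57 ± 0.18 (SE, adjusted p 0.0219) without V617F and 1.69 ± 0.18 (adjusted p 1.9e-07) with it, a 3.22-fold difference. With V617F it was 1.33 ± 0.18 (adjusted p 2.45e-05) in Ezh2 -/- and 0.20 in Ezh2 +/+, where it did not pass. The call in Ezh2 -/- was lost with erythroid and megakaryocyte levels as covariates (0.71, adjusted p 0.11) and with granulocyte, T and NK and stem cell levels (1.15, adjusted p 0.0519). The difference between the 2 Ezh2 effects was itself 1.12 ± 0.25 (adjusted p 0.0125). The call with V617F held in all 10 alternatives and 10 leave-one-out fits (1.57 to 1.77). Without V617F it was lost without Ezh2 -/- replicate 3 (0.49, adjusted p 0.0936) or 4 (0.54, adjusted p 0.0621) and in female libraries alone (0.56, adjusted p 0.119). In the V617F pair, megakaryocyte and platelet sums were 524 to 2040 CPM in V617F and 1350 to 2010 in V617F Ezh2 -/-, granulocyte sums overlapped (692 to 1230 and 142 to 1410), 9 of 12 B cell genes were higher, and with the erythroid and megakaryocyte levels as covariates Slc16a3 was at 1.58 (adjusted p 4.15e-08).

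Slc16a1, the broadly expressed lactate transporter, was at 299 ± 34.8 CPM in control (SD, n = 5) and passed no pairwise test in the main fit. With DESeq2 it was higher for V617F in Ezh2 +/+ (0.31, adjusted p 0.0335) and for Ezh2 loss without V617F (0.30, adjusted p 0.043). The former also passed with both sets of marker covariates (0.65 and 0.55, adjusted p 0.00905 and 5.22e-05). Slc16a3 remained the minor transporter, with a ratio per length to Slc16a1 of 0.0162 ± 0.00371 in control and 0.0597 ± 0.0115 in V617F Ezh2 -/- (range 0.0417 to 0.0768). The chaperone Bsg, which both transporters need to reach the membrane, fell with Ezh2 loss in the presence of V617F from 403 ± 48.3 to 326 ± 21.1 CPM (-0.28 ± 0.09, adjusted p 0.0271).

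The promoter windows of Slc16a3 and Pfkfb4 are shown because these genes were the 2 that rose with Ezh2 loss both without and with V617F. They lie at chr11:120948817-120949116 (plus strand, 36 CpG, 2 CCNCACCC and 2 ACGTG) and chr9:108991652-108991951 (plus strand, 16 CpG, none of the 3 motifs), with capitals as above.
Slc16a3: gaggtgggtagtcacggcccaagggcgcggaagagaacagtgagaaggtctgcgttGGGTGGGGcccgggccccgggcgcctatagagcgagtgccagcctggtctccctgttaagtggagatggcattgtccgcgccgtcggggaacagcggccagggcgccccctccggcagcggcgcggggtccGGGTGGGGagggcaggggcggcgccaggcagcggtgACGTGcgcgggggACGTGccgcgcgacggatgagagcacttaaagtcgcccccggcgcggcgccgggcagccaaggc
Pfkfb4: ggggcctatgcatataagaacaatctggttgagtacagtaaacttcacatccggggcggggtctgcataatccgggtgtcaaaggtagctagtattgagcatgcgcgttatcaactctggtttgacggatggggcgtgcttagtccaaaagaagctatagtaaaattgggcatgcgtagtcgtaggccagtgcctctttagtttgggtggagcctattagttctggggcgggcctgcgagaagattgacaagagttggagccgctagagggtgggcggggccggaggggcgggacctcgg

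Lactate dehydrogenase A, by far the main subunit, fell in V617F Ezh2 -/- to 845 ± 43.2 CPM (SD, n = 6) from 990 ± 65.5 in V617F (n = 4; log2 fold change -0.21 ± 0.07, adjusted p 0.0242), with no overlap. The call was lost in 5 of 10 leave-one-out fits. Against Ezh2 -/- it was -0.17 ± 0.07 (adjusted p 0.0476), lost under 7 of 10 leave-one-out fits and with DESeq2 (adjusted p 0.0716). The B subunit, Ldhb (Entrez 16832), rose with V617F. It was at 0.995, 0.612, 1.16, 0.966 and 3.31 CPM in control and at 13.1, 5.68, 1.78 and 2.12 CPM in V617F (1.76 ± 0.49, adjusted p 0.0113). Control replicate 5 lay within the V617F range, and the call was lost without V617F replicate 1 (1.11, adjusted p 0.0944), in female libraries alone (1.91, adjusted p 0.051), with the compared groups alone (1.71, adjusted p 0.0694) and with marker covariates (1.03 and 0.57, adjusted p 0.0937 and 0.232). In Ezh2 -/- libraries it was at 2.6, 2.47, 2.12 and 1.85 CPM and in V617F Ezh2 -/- it ran from 4.06 through 7.5 to 10.8 CPM, fully above them (1.38 ± 0.5, adjusted p 0.0296). This call was lost in 5 of 10 leave-one-out fits and was at -0.89 and -0.98 with the 2 sets of marker covariates (adjusted p 0.154 and 0.301). Ldhb per length was 0.0134 ± 0.00588 of Ldha in V617F Ezh2 -/-, so Ldha remained the bulk of the transcripts.

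**Figure D4:**
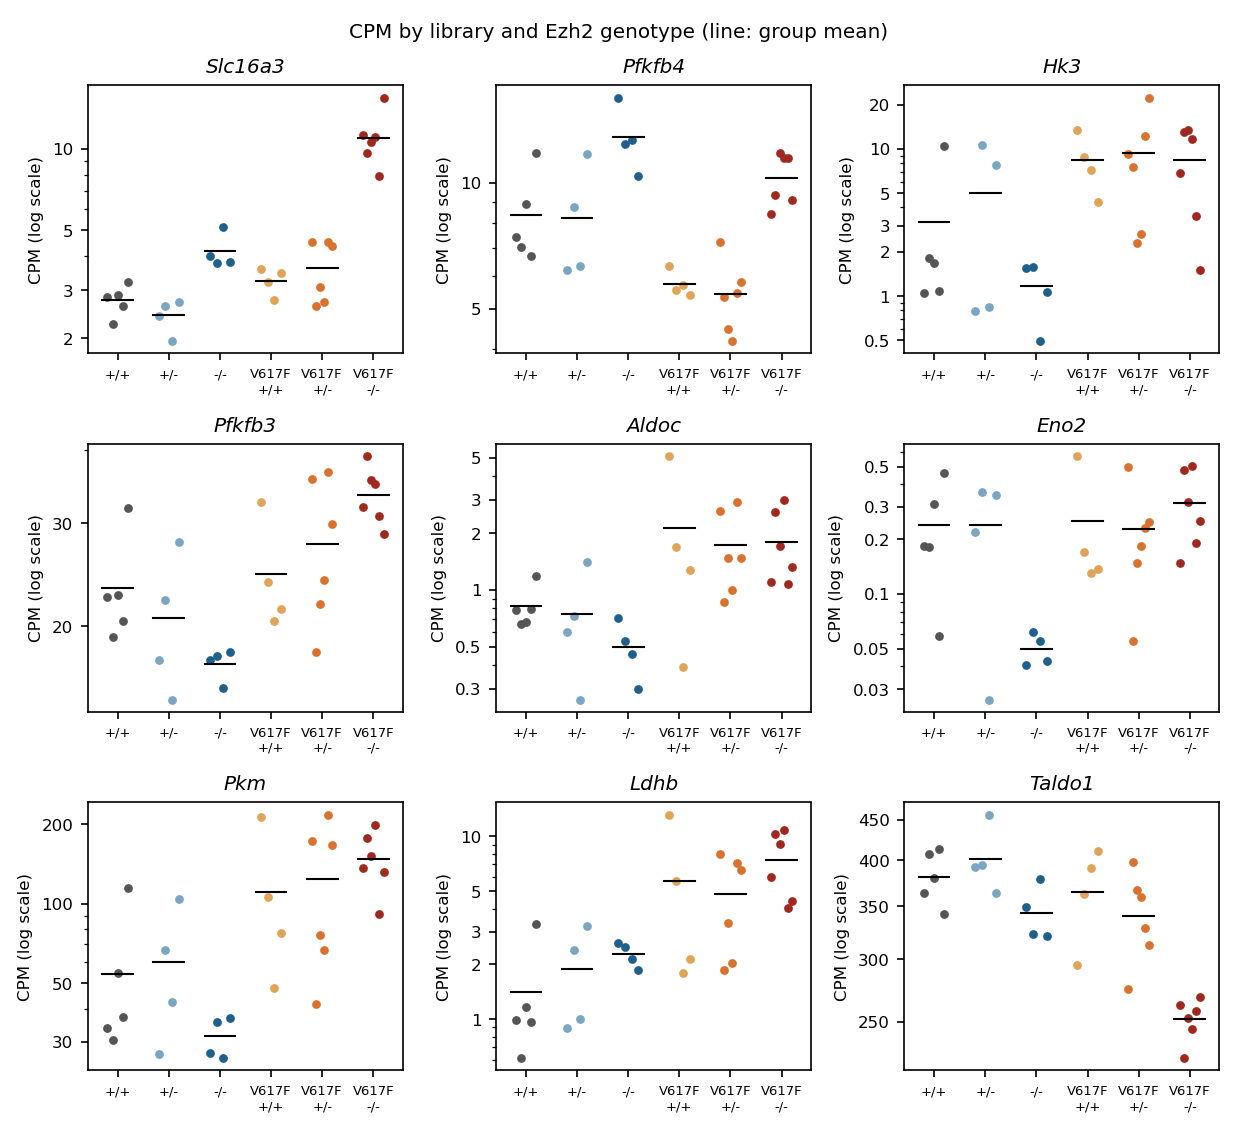
CPM by library (points, log scale) and group mean (lines) for the 9 genes with a called log2 fold change of at least 0.5 in 1 or more comparisons. Slc16a3 and Taldo1 set V617F Ezh2 -/- apart from every other group, Pfkfb4 is high in both Ezh2 -/- groups, and Hk3, Aldoc, Pkm and Ldhb scatter widely within groups.

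Several pentose phosphate genes were lower in V617F Ezh2 -/-. Against V617F, 5 of the 7 fell, where 13.6% of all tested genes were called lower: glucose phosphate dehydrogenase (G6pdx), which makes the first NADPH, phosphogluconate dehydrogenase (Pgd), which makes the second, ribose phosphate isomerase (Rpia), Tkt and Taldo1. The lactonase Pgls (-0.02) and the epimerase Rpe (-0.21) did not pass. Against Ezh2 -/- 4 of the 7 fell, the same genes without Tkt, where 22.5% of all tested genes were called lower; none of the 4 passed with either set of marker covariates. In the main fit, none of the 7 passed for Ezh2 loss without V617F or for V617F in Ezh2 +/+. In Ezh2 +/- Pgls alone passed for V617F, lower (-0.33 ± 0.1, adjusted p 0.0403, lost in 7 of 10 leave-one-out fits). Marker covariates added calls. Taldo1 was lower for Ezh2 loss without V617F with both sets (-0.38 and -0.28, adjusted p 6.93e-06 and 0.00667). With granulocyte, T and NK and stem cell levels, G6pdx, Pgd, Rpia and Tkt were lower there too (-0.19, -0.15, -0.15 and -0.16). With erythroid and megakaryocyte levels, these genes were higher for V617F in Ezh2 +/+ (0.33, 0.32, 0.43 and 0.19). In that fit 6120 of 13928 tested genes were called in either direction, against 3288 in the main fit.

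Taldo1 (Entrez 21351) changed the most. Control libraries had 364, 407, 380, 414 and 342 CPM and Ezh2 -/- libraries 349, 323, 379 and 321, which overlap. V617F libraries had 295, 363, 391 and 411 CPM, and V617F Ezh2 -/- ran from 225 through 255 to 269 CPM. Every V617F Ezh2 -/- library was below all others of the study. The log2 fold change was -0.52 ± 0.09 (SE, adjusted p 0.000242) against V617F and -0.43 ± 0.09 (adjusted p 0.00143) against Ezh2 -/-, and both held in all 10 leave-one-out fits. G6pdx was at 129 ± 16.3 CPM (SD, n = 6) in V617F Ezh2 -/- and 167 ± 14.4 in V617F (n = 4; -0.35 ± 0.09, adjusted p 0.0078), and the highest of the former, 147, equalled the lowest of the latter. Pgd was at 141 ± 7.25 against 184 ± 18.7 CPM (-0.35 ± 0.08, adjusted p 0.00339), with no overlap. Rpia was at 179 ± 15.6 against 236 ± 27.2 CPM (-0.37 ± 0.1, adjusted p 0.0109) and Tkt at 1020 ± 76.4 against 1180 ± 108 CPM (-0.20 ± 0.07, adjusted p 0.0406). The calls for Taldo1, G6pdx and Pgd against V617F held in all 10 alternatives and all 10 leave-one-out fits. Tkt was lost in 6 of 10 leave-one-out fits and 5 of 10 alternatives, and Rpia in female libraries alone (-0.35, adjusted p 0.0512). Against Ezh2 -/-, the calls for G6pdx, Pgd and Rpia were lost without Ezh2 -/- replicate 3 (adjusted p 0.0674, 0.121 and 0.101) and in 5, 5 and 4 of 10 leave-one-out fits in all.

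**Figure D5:**
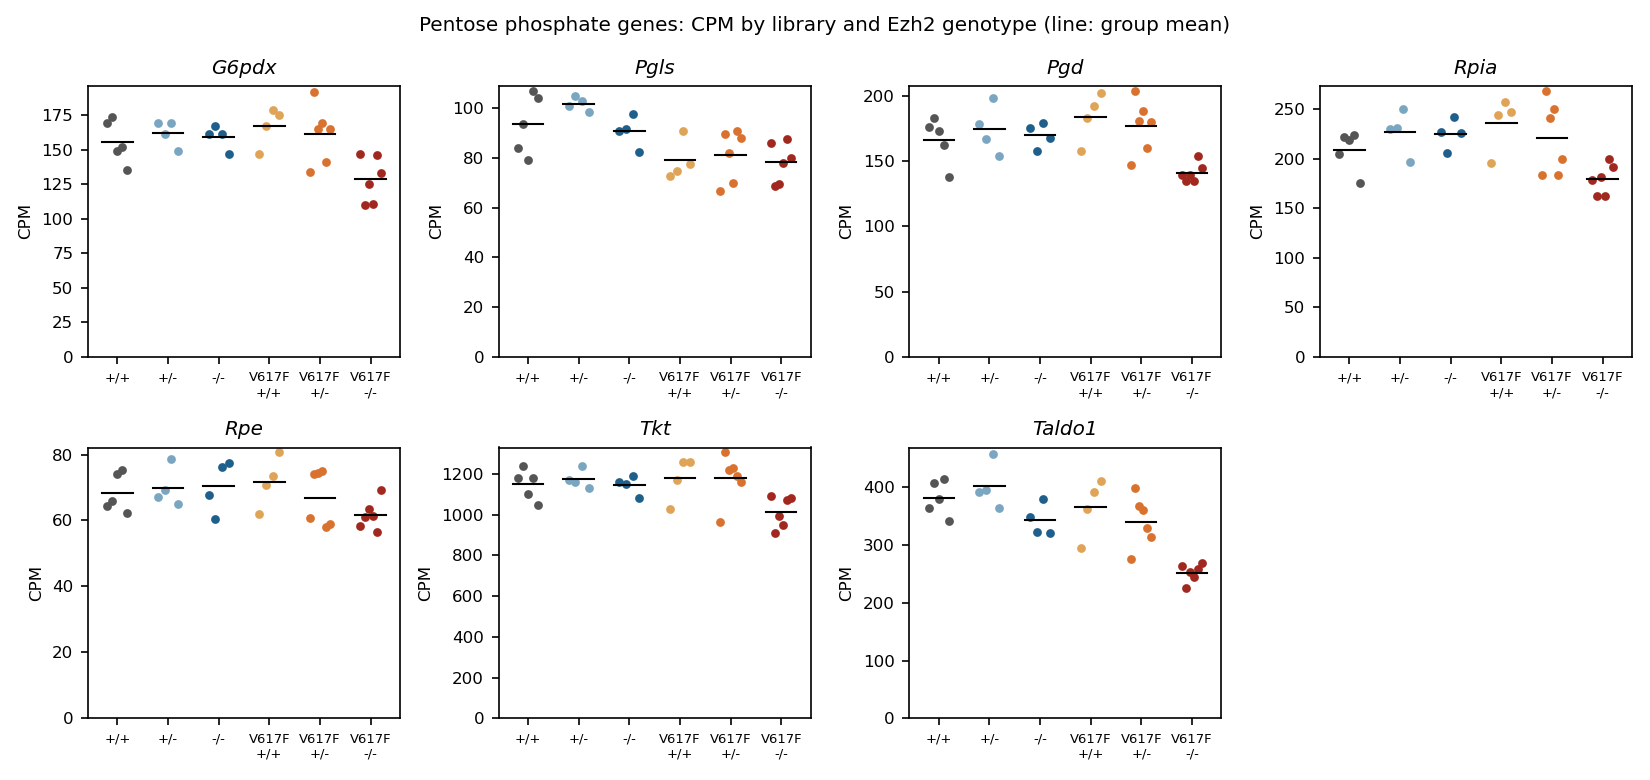
CPM by library (points) and group mean (lines) for the 7 pentose phosphate genes, axes from 0. The V617F Ezh2 -/- group has the lowest mean for all 7 genes; for Taldo1 its 6 libraries, at 225 to 269 CPM, lie below the other 23.

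Low libraries were often shared with the erythroid and cell cycle markers. For 14 of the 33 genes (42.4%), Taldo1 among them, the lowest library of a group was also the one with the lowest erythroid sum in at least 5 of 6 groups, against 13.6% of all tested genes. The share for the cell cycle sum was the same, 42.4 against 13.6%. In every group both sums were lowest in the same library, so the cell cycle share repeats the erythroid one by construction. High libraries were not shared in this way: 0 of the 33 genes had their highest library where the erythroid sum was highest in at least 5 groups (2.07% of all genes), and 2 (6.06%) where the cell cycle sum was (5.63%). The erythroid sum was 8460 to 11300 CPM in V617F and 6720 to 8650 in V617F Ezh2 -/-, and cell cycle sums overlapped (7180 to 8670 and 7000 to 8550). With erythroid and megakaryocyte levels as covariates Taldo1 was at -0.43 (adjusted p 3.18e-05) against V617F and at -0.01 (adjusted p 0.978) against Ezh2 -/-.

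The effect of V617F differed between Ezh2 -/- and Ezh2 +/+ for 11 members (33.3%), where 19.1% of all genes had such an interaction (8.47% more positive, 10.6% more negative). It was more positive in Ezh2 -/- for Pfkfb2, Pfkfb3, Eno2 and Slc16a3, and more negative for Gapdh, Ldha, Slc16a1, G6pdx, Pgd, Rpia and Taldo1. The largest of the latter were Rpia and Slc16a1, both -0.49 on the log2 scale (SE 0.15 and 0.16, adjusted p 0.0279 and 0.0391). Slc16a3 held in all 19 leave-one-out fits and was the only call without Ezh2 -/- replicate 3. The number of calls was 2 without control replicate 1 or V617F replicate 4, 3 without control replicate 5 and 14 without V617F replicate 1. In female libraries alone Slc16a3 was at 1.12 (adjusted p 0.0671). None of the 11 calls held with either set of marker covariates, Slc16a3 included (0.80, adjusted p 0.0694 and 0.74, adjusted p 0.0567). The interaction with Ezh2 +/- gave 0 calls with edgeR (0% of all genes), 0 members at an unadjusted p under 0.05 and 0 with DESeq2.

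The genes around the pathway were taken from 2 lists. Of 43 tested genes of related carbohydrate metabolism, 5 rose and 4 fell with Ezh2 loss without V617F, where 11.5% of all tested genes rose and 12.2% fell. With V617F present 6 rose and 6 fell, where 13% of all tested genes rose and 13.6% fell. Of 28 regulators of glycolysis, 3 rose and 3 fell without V617F, and 7 rose and 2 fell with it, against the same shares of all genes. Hif1a, the oxygen-regulated subunit of the hypoxia-inducible factor, was at 54.4, 50.2, 61.1, 53 and 57.5 CPM in control and at 91.2, 93.8, 92.3 and 102 CPM in Ezh2 -/-, with no overlap (0.77 ± 0.06, adjusted p 6.31e-10). With V617F it went from 61.3 ± 6.75 CPM (SD, n = 4) to 101 ± 5.55 (n = 6; 0.70 ± 0.06, adjusted p 7.41e-09). Egln1, the prolyl hydroxylase that marks Hif1a protein for destruction, rose as well, by 0.57 ± 0.09 and 0.49 ± 0.09 (adjusted p 2.76e-05 and 0.000296).

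Pyruvate carboxylase (Pcx), which feeds pyruvate into oxaloacetate, rose from 21.4 ± 2.48 to 60.9 ± 6.41 CPM with Ezh2 loss without V617F (1.48 ± 0.13, adjusted p 1.75e-09) and from 23.1 ± 3.17 to 49.1 ± 5.86 with it (1.04 ± 0.13, adjusted p 1.4e-06). Malic enzyme (Me1), an NADPH source outside the pentose phosphate pathway, was at 0.0293 to 0.318 CPM in control, near the floor, and at 4.62 to 5.56 CPM in Ezh2 -/- (adjusted p 4.14e-11). It was at 0.37 to 0.726 CPM in V617F and 2.26 to 5.3 CPM in V617F Ezh2 -/- (adjusted p 1.01e-06). Me1 and Pcx were thus higher in every Ezh2 -/- library than in the corresponding Ezh2 +/+ libraries. Txnip, an inhibitor of glucose uptake, fell with Ezh2 loss without V617F from 315 ± 70.2 to 135 ± 22.1 CPM (-1.28 ± 0.29, adjusted p 0.0022). With V617F the groups overlapped, at 187 to 293 CPM in V617F and 150 to 296 in V617F Ezh2 -/-. The mitochondrial pyruvate entry genes Mpc1 and Pdhb fell with Ezh2 loss in the presence of V617F, by 0.35 and 0.27 on the log2 scale (adjusted p 0.0198 and 0.0123). The glucose transporter Slc2a1 was at 3.92 ± 1.57 CPM in control and 10.9 ± 1.9 in V617F Ezh2 -/-, and passed for V617F in Ezh2 -/- (1.03 ± 0.39, adjusted p 0.0383) but not for Ezh2 loss with V617F (0.83 ± 0.37, adjusted p 0.0988). The V617F libraries spread from 2.13 to 12.4 CPM. Another glucose transporter, Slc2a3, had far higher CPM in every library and is described with no test. It was at 88.7 to 96 CPM in control, 78.8 to 82.2 in Ezh2 -/-, 102 to 123 in V617F and 99.8 to 116 in V617F Ezh2 -/-.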

How the data were processed

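RNA was sequenced from sorted MEPs of 6 genotype groups, from 230000 cells per sample per the labels. The authors aligned reads to mouse build mm9 with STAR, per the submitters' processing notes; the sources used here give no version, counting program, annotation or strand setting. The authors deposited raw counts per Entrez gene, with a gene length per row, per the file headers. Symbols came from a RefSeq table of GRCm38.p6, which named 18772 of 18834 genes.

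The counts were filtered with filterByExpr (minimum count 10, minimum total 15), scaled by TMM (factors 0.95 to 1.093) and fitted in edgeR 4.0.16 (R 4.3.3) with a robust quasi-likelihood model of all 29 libraries, with a term per group and 1 for labelled sex (22 residual degrees of freedom, biological coefficient of variation 18.1%). Tests were two-sided, and p-values were adjusted by Benjamini-Hochberg over 13928 genes. There were 9 comparisons, 7 pairwise and 2 interactions. The procedure was tested on simulated data. CPM values use the scaled library size. No 2 replicates were duplicates (lowest chi-square per degree of freedom 4.7). Replicate numbers were not taken as pairs. Alternatives were DESeq2 1.42.0, its size factors, no filter, no sex term, females only, compared groups only, a replicate block, without the 3 libraries apart, 2 sets of marker covariates and leave-one-out fits.

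The members, lists and rules were chosen with earlier results of these data known. Per-library values are given for members called with an absolute log2 fold change of at least 0.5 in a pairwise comparison, other members by range or group mean, and up to 3 genes per direction of the other lists. Slc2a1 and Bsg, outside this rule, were chosen after their values were seen, as was Slc2a3. Among the further marker lists, T and NK genes summed to 28.3 to 266 CPM per library and B cell genes to 3.83 to 72.4. Monocyte, macrophage and dendritic genes summed to 40.6 to 258, mast cell and basophil genes to 423 to 741, and stem and multipotent progenitor genes to 238 to 1020. Most of the mast cell and basophil sum was Kit, at 440 to 568 CPM in the group means.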

Additional observations from a re-analysis of the deposited data

Results flagged for a closer look

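Among 198 tests for a library far from the rest of its group, 12 were positive, and chance flags about 1 in 20 groups. Control replicate 5 gave 5 of them: it was far above the other controls for Hk3 (10.4 CPM), Pfkfb3 (31.8 CPM), Aldoc (1.19 CPM), Pkm (115 CPM) and Ldhb (3.31 CPM). V617F replicate 1 was far above its group for Hk2 (23.1 CPM) and Eno2 (0.57 CPM). The others were control replicate 3 for Pfkp (36.7 CPM), Ezh2 -/- replicate 4 for Pfkp (39.3 CPM), Ezh2 -/- replicate 3 for Slc16a3 (5.13 CPM), V617F Ezh2 +/- replicate 1 for Pfkfb2 (56.6 CPM) and V617F Ezh2 -/- replicate 6 for Pfkl (157 CPM).

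The effect of V617F in Ezh2 -/- differed from that in Ezh2 +/+ by an interaction term in edgeR for 11 genes. On the log2 scale the difference was 2.54 for Eno2, 1.12 for Slc16a3, 0.84 for Pfkfb3 and 0.35 for Pfkfb2. It was -0.49 for Slc16a1 and for Rpia, -0.40 for G6pdx and for Pgd, -0.38 for Taldo1, -0.34 for Gapdh and -0.30 for Ldha. The Eno2 value rests on an Ezh2 -/- group at the floor of 3 counts and is no bound. None of the 11 calls held with either set of marker covariates.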

How the results depend on the processing

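The number of members called was within 1.5 times its value in all comparisons with DESeq2, with its size factors, without the filter and without the sex term. In female libraries alone it was 3 for Ezh2 loss without V617F and 1 for the interaction with Ezh2 -/-. With only the compared groups it was 3 for V617F in Ezh2 +/+ and 0 for V617F in Ezh2 +/-. With the replicate block the interaction with Ezh2 -/- gave 4, and the block moved no other member count by over 1.5 times; the numbers share no stated litter or day, 24 of 62 same-numbered pairs correlated above 0.1, and 10 of 29 libraries matched their own number best. Without the 3 libraries apart, V617F in Ezh2 +/- gave 0, with 2 Ezh2 +/- libraries left, both male, and the interaction 4. Marker covariates moved the most. With granulocyte, T and NK and stem levels as covariates, Ezh2 loss gave 16 without and 14 with V617F, V617F gave 3, 0 and 0 in Ezh2 +/+, +/- and -/-, and the interactions with Ezh2 -/- and +/- gave 1 and 4. The 1 was Ldhb (-1.91, adjusted p 5.11e-05), which the main fit did not call. With erythroid and megakaryocyte levels, added after seeing the data, Ezh2 loss without V617F gave 11, V617F gave 18, 13 and 3, and the interaction with Ezh2 -/- gave 0. Leave-one-out counts were 5 to 8 and 7 to 14 for Ezh2 loss without and with V617F, 0 to 0 for Ezh2 +/- in both, 4 to 8, 1 to 5 and 9 to 19 for V617F in Ezh2 +/+, +/- and -/-, 1 to 14 for the interaction with Ezh2 -/- and 0 to 0 for that with Ezh2 +/-. The extremes came without V617F replicate 1 (14 for Ezh2 loss with V617F, 14 for the interaction), Ezh2 +/- replicate 5 (1), V617F Ezh2 +/- replicate 2 (5), V617F replicate 3 (8) and Ezh2 -/- replicate 3 (9, and 1 for the interaction). Over all tested genes, the counts were 3307 and 3709 for Ezh2 loss without and with V617F, 2 and 1 for Ezh2 +/-, 3288, 1374 and 5795 for V617F in Ezh2 +/+, +/- and -/-, and 2663 and 0 for the interactions with Ezh2 -/- and +/-. They moved by over 1.5 times as follows. In females, Ezh2 loss gave 1681 and 2268, Ezh2 +/- 0 and 20, V617F in Ezh2 +/+ 1875 and the first interaction 128. V617F in Ezh2 +/- gave 2170 without the sex term, 313 with the compared groups alone and 94 without the 3 libraries apart. The first interaction gave 1623 with the replicate block and 1199 without the 3 libraries apart. With erythroid and megakaryocyte covariates V617F gave 6120, 3980 and 815 and the first interaction 421. With the other covariates V617F gave 142 in Ezh2 +/- and 421 in Ezh2 -/-, the interactions 980 and 717, and V617F Ezh2 +/- against V617F 83. DESeq2 gave 4 and 36 for Ezh2 +/- and 6 for its interaction. The other moves outside leave-one-out fits were between 1 and 2 genes for Ezh2 +/-. Leave-one-out counts over all genes were 2096 (without Ezh2 -/- replicate 3) to 3595 and 1954 (without V617F replicate 4) to 5151 for Ezh2 loss without and with V617F, 1 to 2 and 1 to 37 (without V617F replicate 3) for Ezh2 +/-, and 2518 to 3279 for V617F in Ezh2 +/+. They were 706 (without Ezh2 +/- replicate 5) to 1893 and 3197 (without Ezh2 -/- replicate 3) to 6112 for V617F in Ezh2 +/- and -/-, and 297 (without Ezh2 -/- replicate 3) to 4633 (without V617F replicate 1) for the first interaction. Reversals of single members came under covariates. With granulocyte, T and NK and stem covariates the log2 values for Ezh2 loss without V617F were -0.14 for Tpi1, 0.47 for Pkm, -0.28 for Pklr, -0.19 for G6pdx, -0.15 for Pgd, -0.15 for Rpia and -0.16 for Tkt. Those for V617F in Ezh2 -/- were -1.92 for Hk3, 0.21 for Pfkm, -0.15 for Pfkfb2, -0.38 for Aldoc, -0.22 for Pgam1, -0.22 for Eno2, 0.47 for Pklr, 0.04 for Ldha, -0.89 for Ldhb, 0.11 for Pgd and 0.30 for Rpia. With erythroid and megakaryocyte covariates, V617F gave -0.41 for Pfkfb3 in Ezh2 +/+, and 0.31 for Pfkm and 0.44 for Pklr in Ezh2 +/-. In Ezh2 -/- it gave -0.54 for Hk2, 0.21 for Pfkm, -0.01 for Pfkp, -0.03 for Pfkfb3, -0.01 for Pgam1, -0.22 for Eno2, -0.47 for Pkm, 0.41 for Pklr, -0.98 for Ldhb, 0.15 for G6pdx, 0.09 for Pgd and 0.20 for Rpia. The cause was not tested. Eno2 is limited by depth, with 10 reads over the 4 Ezh2 -/- libraries, where Aldoc had 100.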
